A study of Rattus norvegicus with 16 samples.

Results

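Small heat shock proteins are low-molecular-weight chaperones that hold unfolding proteins in solution, and several of them guard the actin and intermediate filament networks of contractile cells. The genes described here were 5 small heat shock proteins with HSPB names (Hspb1, Hspb2, Hspb6, Hspb7 and Hspb8), the small heat shock protein αB-crystallin (Cryab), the co-chaperone Bag3, and Flnc, which encodes filamin C, an actin crosslinker that the BAG3 complex clears when mechanical strain unfolds it. They were taken by symbol and made up 8 of the 36351 genes in the table of read counts. Of these, 7 passed the filter on low counts and were tested among 17061 genes. Hspb7 was too low to be tested.

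RNA was sequenced from isolated rat glomeruli, the filtration units of the kidney, in 4 groups of 4 rats. PAN+Pio rats received 50 mg/kg puromycin aminonucleoside (PAN), which injures podocytes and causes a nephrotic syndrome, by tail vein on day 0, and then 10 mg/kg pioglitazone, a PPARγ agonist, by mouth daily. PAN+MP rats received the same injection and then 15 mg/kg methylprednisolone, a glucocorticoid, intraperitoneally each day. PAN rats received the injection and oral vehicle, and Sham rats received oral vehicle without PAN. Glomeruli were taken on day 11, so a group describes a single time after injury. The labels give neither strain, sex nor age of the rats. According to the series' design text, the study asked which disease-induced changes in gene expression were ameliorated by both drugs. Libraries are numbered 1 to 4 within a group only to name them.

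BAG3 joins HSPB8 and HSP70 family chaperones into a complex that passes damaged filamin to the ubiquitin ligase CHIP (Stub1) and the autophagy receptor p62 (Sqstm1), a route called chaperone-assisted selective autophagy that was worked out in muscle. HSPB1, HSPB2, HSPB6 and αB-crystallin bind actin or desmin filaments in muscle, and HSPB1 (rat HSP27) is known in podocytes as a regulator of actin. Hspb1, Cryab and Bag3 are classical targets of HSF1, the transcription factor of the heat shock response, which binds inverted pairs of GAA and TTC in promoters.

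The promoters of 5 members are shown because 4 of them carry such an inverted pair (Hspb1, Hspb6, Hspb8 and Bag3), and the last, of Flnc, belongs to the member with the largest fold change. Each runs from 250 bases before to 50 bases after the gene's start in RefSeq's annotation of the rat build GRCr8, 5′ to 3′ on the gene's own strand, and capitals mark every GAANNTTC or TTCNNGAA, where N is any base. The counts were made on another build, Rnor_6.0.
Hspb1: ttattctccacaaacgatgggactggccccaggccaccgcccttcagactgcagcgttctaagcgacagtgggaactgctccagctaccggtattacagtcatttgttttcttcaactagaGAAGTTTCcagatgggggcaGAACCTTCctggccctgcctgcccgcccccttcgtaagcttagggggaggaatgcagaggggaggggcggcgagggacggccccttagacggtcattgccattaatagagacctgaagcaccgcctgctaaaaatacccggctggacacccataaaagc
Hspb6: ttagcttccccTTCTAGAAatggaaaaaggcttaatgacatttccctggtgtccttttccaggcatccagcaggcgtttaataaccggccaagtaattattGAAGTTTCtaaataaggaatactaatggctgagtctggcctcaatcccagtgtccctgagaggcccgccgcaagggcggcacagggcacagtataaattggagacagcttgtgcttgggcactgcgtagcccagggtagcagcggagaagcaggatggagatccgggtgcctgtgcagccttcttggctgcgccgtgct
Hspb8: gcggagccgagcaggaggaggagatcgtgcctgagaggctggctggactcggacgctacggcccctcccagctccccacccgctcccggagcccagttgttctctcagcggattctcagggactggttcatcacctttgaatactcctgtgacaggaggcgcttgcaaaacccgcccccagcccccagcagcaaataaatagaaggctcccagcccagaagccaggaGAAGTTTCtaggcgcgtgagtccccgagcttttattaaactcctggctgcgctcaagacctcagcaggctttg
Bag3: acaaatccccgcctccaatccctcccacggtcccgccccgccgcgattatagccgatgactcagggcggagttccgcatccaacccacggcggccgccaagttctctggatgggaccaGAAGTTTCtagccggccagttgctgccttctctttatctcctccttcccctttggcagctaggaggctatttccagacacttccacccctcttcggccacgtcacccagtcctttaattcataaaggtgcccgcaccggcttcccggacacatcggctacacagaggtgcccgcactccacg
Flnc: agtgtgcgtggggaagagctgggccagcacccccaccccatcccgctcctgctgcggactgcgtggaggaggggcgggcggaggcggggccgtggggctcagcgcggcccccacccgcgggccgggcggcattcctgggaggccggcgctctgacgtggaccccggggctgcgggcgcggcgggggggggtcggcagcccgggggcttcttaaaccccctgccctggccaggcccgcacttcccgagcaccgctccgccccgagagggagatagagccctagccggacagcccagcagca
They lie at chr12:26432252-26432551 on the minus strand (Hspb1), and on the plus strand at chr1:94934122-94934421 (Hspb6), chr12:45837058-45837357 (Hspb8), chr1:192533210-192533509 (Bag3) and chr4:58999297-58999596 (Flnc).

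RefSeq's promoter table held 6 of the 8 members, the sixth being Hspb7. The pair GAANNTTC, which reads the same on both strands, occurred in 4 of the 6, against 8.59% of 33469 rat promoters of this length. The pair TTCNNGAA, present in 8.77% of all promoters, occurred in Hspb6 only. Each of those 4 promoters held the head-to-head pair as the run GAAGTTTC, which 1.39% of all promoters held, and Hspb1 held a second pair, GAACCTTC, at -109. The shared run was chosen after the sequences were seen. It began 129 bases before the start site in Hspb1, at -149 in Hspb6, at -23 in Hspb8 and at -132 in Bag3. A letter match is no evidence that HSF1 binds there, and neither Hspb7 nor Flnc held either pair in this window.

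Total reads per library ran from 22802109 to 32571877, and levels are CPM, read counts scaled to a common effective library size. They are not scaled to gene length, so levels of different genes are not compared. Fold changes are from edgeR's quasi-likelihood test in a single model of the 16 libraries, with Benjamini-Hochberg adjustment over all 17061 genes, and a gene is called changed at an adjusted p under 0.05. Nothing ties the count columns to litters or cages, and beyond the 4 rats per group the spread between libraries may be technical in part. Podocyte markers were abundant in all groups, at a summed 27328 to 31056 CPM in PAN+Pio, 24776 to 29563 CPM in PAN+MP, 18883 to 28677 CPM in PAN and 20635 to 33786 CPM in Sham over 12 genes. Of these 12, 4 were called lower in PAN than in Sham, among them Magi2 (-2.43 ± 0.21, adjusted p 3.48e-06), and 1 was called higher. Against PAN, 1 was called higher in PAN+Pio and 2 in PAN+MP, and none was called lower. The part of podocyte content in the differences of the members was not tested. In whole glomeruli, fewer cells of a type and less RNA per cell cannot be told apart.

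In PAN glomeruli, 4 of the 7 tested members were higher than in Sham glomeruli, namely Flnc, Cryab, Hspb2 and Hspb6, and none was lower. Over all tested genes, 10.4% were called higher and 8.52% lower. The same 4 members were those whose PAN libraries all lay above all Sham libraries, as did 11.2% of all tested genes. Filamin C changed by far the most, about 20.2-fold, whereas the 3 chaperones were 1.51- to 1.65-fold higher. Hspb1, Bag3 and Hspb8 did not pass the test. The median log2 fold change of the 7 genes was 0.71, against 0.01 for all tested genes. The members were chosen with earlier results of these data known, so these comparisons with all genes are descriptions and not a test. The authors' deposited table called the same 4 members for PAN over Sham.

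Filamin C crosslinks actin at the Z-discs and attachment sites of muscle and is ordinarily scarce elsewhere. Flnc stood at 39.7, 13.8, 5.04 and 3.77 CPM in the 4 PAN libraries, against 0.748, 0.840, 1.12 and 0.351 CPM in the 4 Sham libraries. Every PAN library lay above every Sham library, and the PAN libraries differed widely among themselves, PAN library 1 standing highest. These levels rest on 987, 372, 146 and 99 reads in PAN, against 17, 19, 30 and 9 reads in Sham. The log2 fold change was 4.34 ± 0.67 (SE, n = 4 each; 95% interval 2.92 to 5.76), with an adjusted p of 3.66e-04. Without PAN library 1 it was 3.29, with an adjusted p of 4.47e-04. Within the PAN group the coefficient of variation of Flnc was 107%, and 0.205% of the tested genes had a larger one there. Flnc overlaps an uncharacterised locus, LOC134486566, in the newer annotation, and that locus is not among the genes counted here.

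Both drugs went with low Flnc. It stood at 1.495, 0.882, 2.32 and 1.33 CPM in PAN+Pio and at 1.63, 1.03, 0.824 and 1.62 CPM in PAN+MP. Every library of the drug groups lay below every PAN library, and the drug groups overlapped each other. Group means were 1.51 ± 0.603 CPM in PAN+Pio, 1.27 ± 0.411 CPM in PAN+MP, 15.6 ± 16.7 CPM in PAN and 0.764 ± 0.317 CPM in Sham (SD, n = 4 each). Against PAN, the log2 fold change was -3.37 ± 0.62 in PAN+Pio (10.3-fold lower, adjusted p 0.00698) and -3.61 ± 0.63 in PAN+MP (12.2-fold lower, adjusted p 0.00144). Without PAN library 1 these were -2.32 (adjusted p 0.0161) and -2.56 (adjusted p 0.00246). Flnc was the only member called for PAN+MP against PAN, and it was lower; 5.31% of all tested genes were called lower and 3.31% higher there. For PAN+Pio against PAN, Flnc and Hspb8 were called lower, as were 2.85% of all tested genes, and 0.832% were called higher.

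Against Sham, Flnc differed by 0.97 ± 0.68 in PAN+Pio (adjusted p 0.394) and by 0.73 ± 0.68 in PAN+MP (adjusted p 0.492). The intervals, -0.48 to 2.41 and -0.71 to 2.17, leave room for a difference of several fold. Between the drugs, PAN+Pio less PAN+MP was 0.24 with an interval of -1.11 to 1.59. The authors' deposited table gave Flnc a log2 fold change of 3.43 for PAN over PAN+MP and of 3.17 for PAN over PAN+Pio.

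**Figure D1:**
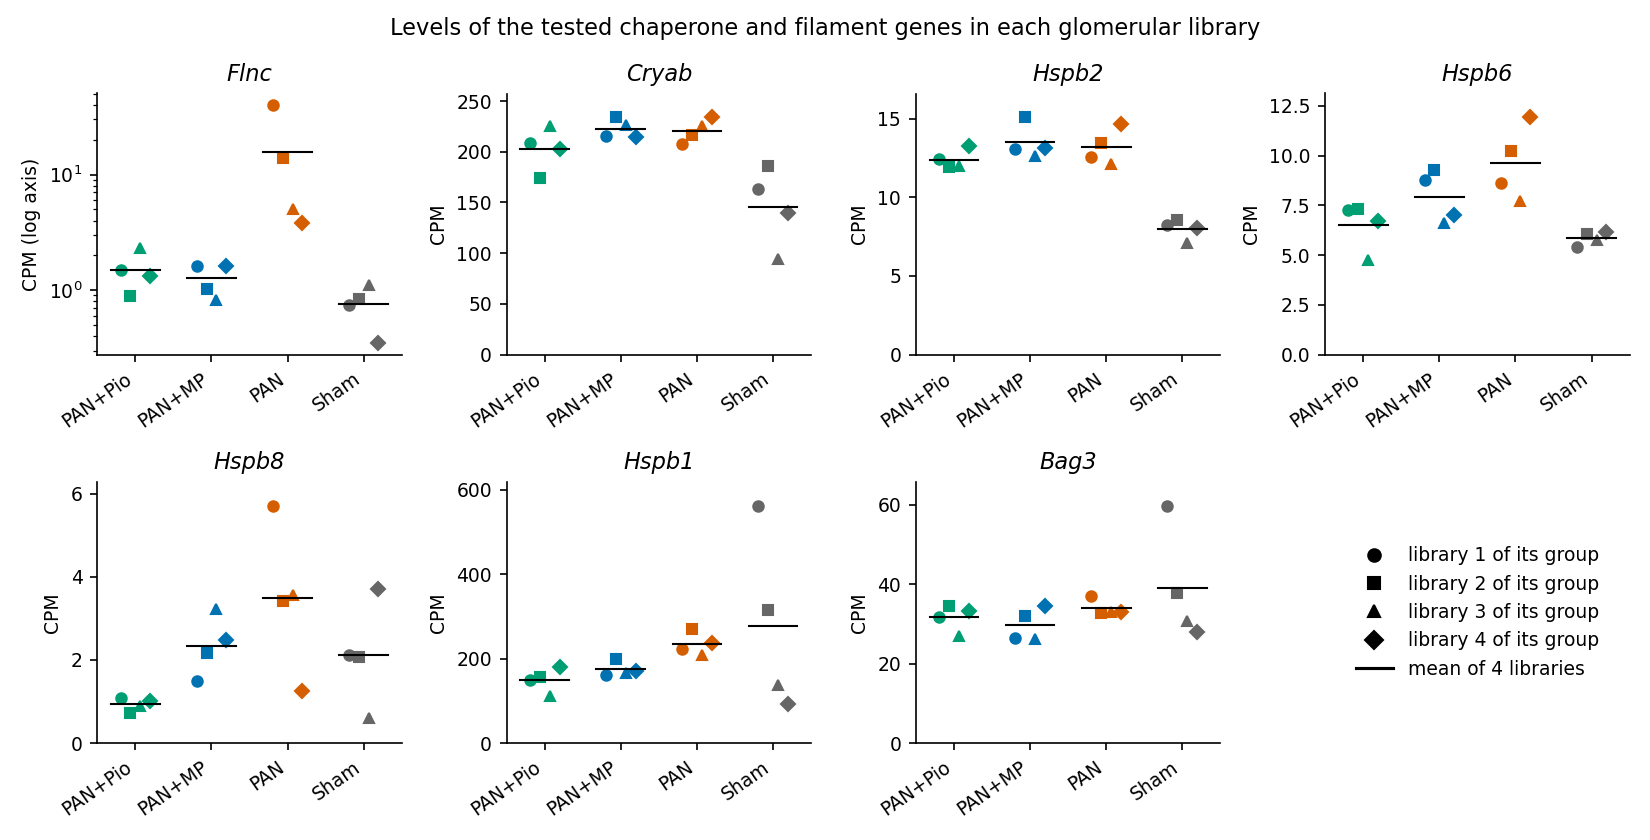
Level of each tested member in CPM (vertical axis, a log axis for Flnc and from 0 for the others) in the libraries of PAN+Pio, PAN+MP, PAN and Sham glomeruli. Symbols are single libraries and lines are means of 4. Flnc is at most 2.32 CPM in PAN+Pio and 1.63 CPM in PAN+MP, against 3.77 to 39.7 CPM in PAN, Cryab and Hspb2 are higher in all 3 PAN-injected groups than in Sham on average, and Hspb1 spreads from 93.5 to 562 CPM within Sham.

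Cryab and Hspb2 lie side by side and share a regulatory region in mammals, and their annotated spans overlap in the rat. αB-crystallin protects desmin in muscle and is also abundant in lens and kidney, and HSPB2 is a muscle chaperone that binds myotonic dystrophy kinase. Cryab was at 208, 216, 225 and 234 CPM in PAN, against 163, 186, 94.7 and 140.0 CPM in Sham. Hspb2 was at 12.6, 13.4, 12.1 and 14.6 CPM in PAN, against 8.23, 8.58, 7.12 and 8.03 CPM in Sham. For both genes all PAN libraries lay above all Sham libraries, tightly grouped for Hspb2 and with a low Sham library 3 for Cryab. The log2 fold change was 0.72 ± 0.10 for Hspb2 (adjusted p 1.44e-04) and 0.60 ± 0.15 for Cryab (adjusted p 0.0102). In a fit of the PAN and Sham libraries alone the adjusted p of Cryab was 0.0573.

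Neither gene of this pair was called lower under either drug. Cryab averaged 202 ± 21.6 CPM in PAN+Pio, 223 ± 9.25 CPM in PAN+MP and 221 ± 11.2 CPM in PAN (SD, n = 4 each). Hspb2 averaged 12.4 ± 0.620 CPM in PAN+Pio, 13.5 ± 1.09 CPM in PAN+MP and 13.2 ± 1.09 CPM in PAN. The 3 PAN-injected groups overlapped for both genes. Against PAN, Cryab differed by -0.13 in PAN+Pio (95% interval -0.44 to 0.18) and by 0.01 in PAN+MP (-0.30 to 0.32). Hspb2 differed by -0.09 (-0.30 to 0.11) and by 0.03 (-0.17 to 0.24). Each interval thus excludes a fall as large as the estimated log2 difference between PAN and Sham. That estimate has its own 95% interval, 0.52 to 0.93 for Hspb2 and 0.29 to 0.91 for Cryab. For Cryab, unlike Hspb2, the intervals against PAN reach falls of a size within that range.

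Against Sham, Hspb2 was called higher in all 3 injected groups. The log2 fold change was 0.63 ± 0.10 in PAN+Pio (adjusted p 0.00236) and 0.75 ± 0.10 in PAN+MP (adjusted p 4.97e-04). Cryab was called in PAN+MP, at 0.61 ± 0.15 (adjusted p 0.0173), and stood at 0.47 ± 0.15 in PAN+Pio (adjusted p 0.0735). Without PAN+MP library 2 the adjusted p of Cryab in PAN+MP was 0.0506. In all, 1 member was called in PAN+Pio against Sham, where 5.08% of all tested genes were called in either direction. For PAN+MP against Sham, 2 members were called higher and none lower, where 5.98% and 6.72% of all tested genes were.

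The ratio of reads between the genes of the pair overlapped between the groups. There were 16.4 ± 1.88 Cryab reads per Hspb2 read in PAN+Pio, 16.6 ± 0.994 in PAN+MP, 16.8 ± 1.18 in PAN and 18.1 ± 3.61 in Sham (SD, n = 4 each). For PAN against Sham the exact permutation p was 0.657 (two-sided; adjusted p 0.83 over 6 such comparisons). Whether the authors' counting used strand is not given in the sources used here, so reads in the overlap of Cryab and Hspb2 cannot be assigned with certainty.

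HSPB6 (HSP20) is a small heat shock protein of smooth and cardiac muscle that is phosphorylated when smooth muscle relaxes. Hspb6 was at 8.61, 10.2, 7.69 and 11.9 CPM in PAN, against 5.42, 6.06, 5.78 and 6.16 CPM in Sham. All PAN libraries lay above all Sham libraries, and the Sham libraries were close together. PAN exceeded Sham by 0.72 ± 0.17 on the log2 scale (adjusted p 0.00816). In the drug groups Hspb6 stood at 7.27, 7.29, 4.73 and 6.70 CPM in PAN+Pio and at 8.77, 9.27, 6.63 and 6.99 CPM in PAN+MP. All PAN+Pio libraries lay below all PAN libraries, and the PAN+MP libraries overlapped with PAN.

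Neither drug group differed from PAN in Hspb6 past the threshold. Against PAN it was -0.56 ± 0.17 in PAN+Pio (95% interval -0.92 to -0.21, adjusted p 0.0797) and -0.28 ± 0.17 in PAN+MP (adjusted p 0.38). The authors' deposited table called it for PAN over PAN+Pio, at 0.47 on the log2 scale (adjusted p 0.00763), and a DESeq2 fit of the counts gave an adjusted p of 0.0244. Compared with Sham, Hspb6 differed by 0.15 ± 0.17 in PAN+Pio (adjusted p 0.605) and by 0.43 ± 0.17 in PAN+MP (adjusted p 0.0976), neither called. For PAN+MP over Sham the authors' deposited table called it, at 0.34 (adjusted p 0.0393). Hspb6 overlaps Lin37, a cell cycle regulator, in the annotation, and Lin37 differed by -0.01 ± 0.09 between PAN and Sham.

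**Figure D2:**
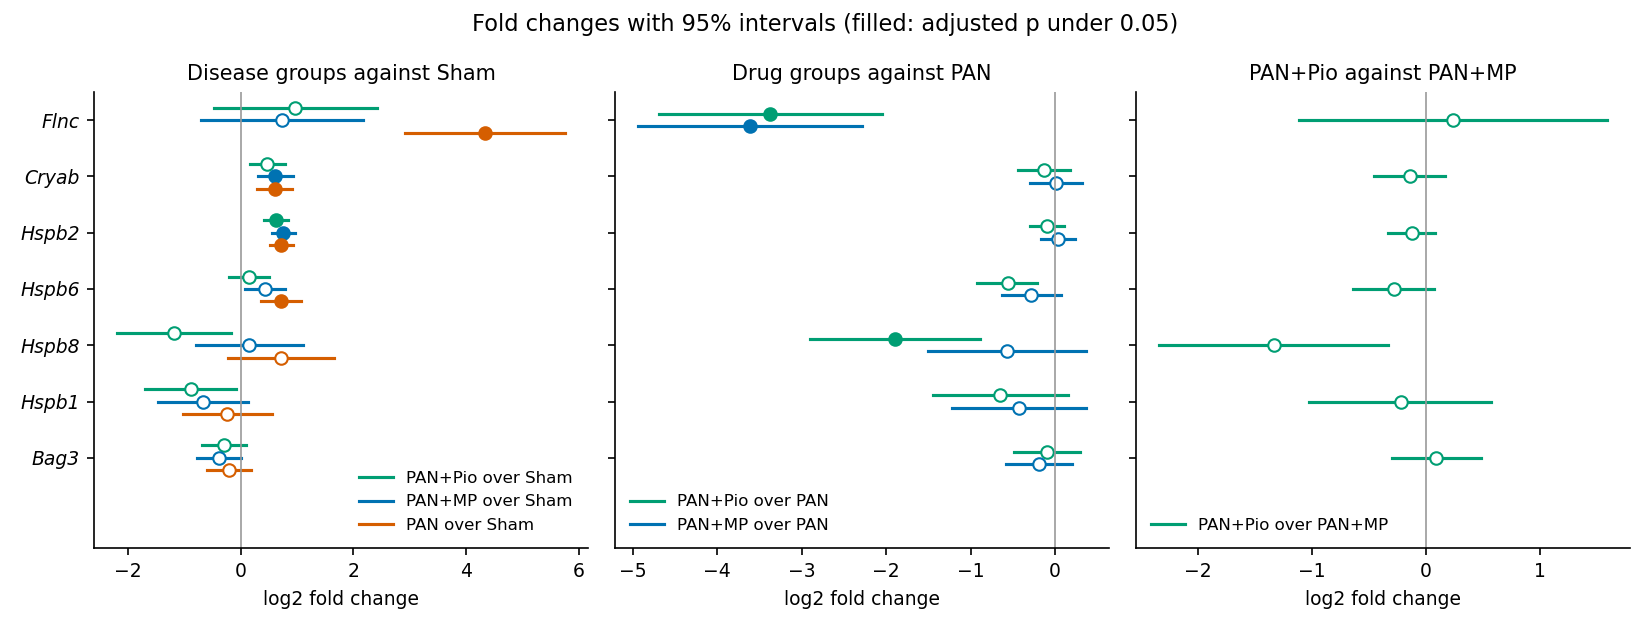
Log2 fold change (horizontal axes) of each tested member with its 95% interval, for the PAN-injected groups over Sham, the drug groups over PAN, and PAN+Pio over PAN+MP. Filled points passed an adjusted p under 0.05. Flnc lies far from 0 for PAN over Sham and for both drugs over PAN, while Hspb2 and Cryab are above 0 against Sham and near 0 between drugs and PAN.

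HSPB8 is the small heat shock protein that BAG3 carries. Hspb8 stood at 1.08, 0.729, 0.897 and 1.02 CPM in PAN+Pio, against 5.71, 3.41, 3.55 and 1.26 CPM in PAN. The PAN+Pio libraries were uniformly low and lay below every PAN library. The log2 fold change was -1.90 ± 0.47 (3.72-fold lower, adjusted p 0.0355). The call was lost in 7 of the 8 fits that left out 1 library of these groups, with an adjusted p of 0.0708 to 0.113, and the log2 fold change lay between -2.17 and -1.56 in all 8. The authors' deposited table called it too, at 1.64 for PAN over PAN+Pio (adjusted p 0.00134).

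Hspb8 differed less clearly elsewhere. It stood at 1.49, 2.18, 3.23 and 2.49 CPM in PAN+MP and at 2.11, 2.08, 0.596 and 3.70 CPM in Sham, ranges that overlapped with those of PAN. PAN against Sham was 0.71 ± 0.45 (adjusted p 0.272), and PAN+MP against PAN was -0.57 ± 0.44 (adjusted p 0.532). PAN+Pio against Sham was -1.18 ± 0.48 (adjusted p 0.149). PAN+Pio lay below PAN+MP without overlap, as 3.39% of all tested genes did, by -1.33 ± 0.47 (95% interval -2.34 to -0.33), with an adjusted p of 0.355 and an unadjusted p of 0.0127. It was the only member with an unadjusted p under 0.05 between the drugs. None was called there by edgeR or by DESeq2, where 0.633% of all tested genes were called by edgeR. In the fit of the 2 drug groups alone the adjusted p of Hspb8 was 0.0487.

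HSPB1 caps actin filaments and is the most widely expressed small heat shock protein. Hspb1 was at 222, 269.6, 209 and 238 CPM in PAN, against 562, 315, 137 and 93.5 CPM in Sham. The PAN libraries lay close together inside the wide Sham range. Its coefficient of variation in Sham was 76.9%, which 1.83% of the tested genes exceeded in that group. PAN against Sham was -0.24 ± 0.37 (95% interval -1.03 to 0.56, adjusted p 0.686), and without Sham library 1 it was 0.37 (adjusted p 0.437). No direction can be given for Hspb1 between PAN and Sham at this spread.

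In the drug groups Hspb1 was lower than in every PAN library, at 149, 156, 112 and 181 CPM in PAN+Pio and at 161, 199.6, 167 and 171 CPM in PAN+MP. The log2 fold change against PAN was -0.65 ± 0.38 in PAN+Pio (adjusted p 0.442) and -0.43 ± 0.37 in PAN+MP (adjusted p 0.594), neither past the threshold. Among all tested genes, 6.42% and 8.62% lay without overlap below PAN in the same comparisons. The SE comes from a model that includes the 4 Sham libraries. Without them, a fit added after their spread was seen, the adjusted p was 0.0165 for PAN+Pio and 0.0659 for PAN+MP. Fits of each drug group with PAN alone gave 0.0423 and 0.0325.

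Bag3 did not pass the test in any comparison. BAG3 binds HSP70 and HSPB8 at separate sites and so couples them. Bag3 was at 37.1, 32.6, 32.9 and 32.9 CPM in PAN, against 59.7, 37.7, 30.7 and 27.9 CPM in Sham. The PAN libraries were close together within the wider Sham range. It averaged 31.7 ± 3.32 CPM in PAN+Pio and 29.8 ± 4.11 CPM in PAN+MP (SD, n = 4 each), overlapping with PAN. PAN against Sham was -0.20 ± 0.18 (95% interval -0.59 to 0.19, adjusted p 0.453). Against PAN it was -0.10 ± 0.18 in PAN+Pio (adjusted p 0.874) and -0.19 ± 0.18 in PAN+MP (adjusted p 0.641).

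HSPB7 is a heart and muscle chaperone that binds filamin C. Hspb7 had 0 to 15 reads per library, with summed reads of 18 in PAN+Pio, 20 in PAN+MP, 30 in PAN and 10 in Sham. Sham library 2 had none, which allows up to 0.133 CPM (3 reads, counting error only). PAN library 2 held 15 of the 30 PAN reads. In a fit without the filter, PAN against Sham was 1.44 ± 0.68 with an adjusted p of 0.227.

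Of the further small heat shock proteins, Hspb3 and the lens crystallin Cryaa were tested and not called in any comparison. Hspb3 stood at 0.913 ± 0.396 CPM in PAN+Pio, 0.396 ± 0.181 CPM in PAN+MP, 0.330 ± 0.183 CPM in PAN and 0.417 ± 0.222 CPM in Sham. Odf1 had no read in any library, and Hspb9 had no more than 16 reads in all.

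The high level of Hspb1 and Bag3 in Sham library 1 was shared by most other HSF1-target chaperones tested. Hspb1 and Bag3 ranked the 4 Sham libraries alike, library 1 highest and library 4 lowest. Cryab differed, with library 2 highest and library 3 lowest in Sham. Of 12 podocyte markers, 10 were highest in Sham library 2 and 12 lowest in Sham library 3. Among 19 tested HSF1-target chaperones outside the members, 17 were highest in Sham library 1 within that group. Of these 19, 15 were lowest in Sham library 3 and 3 in Sham library 4. With Hspa1a, which was too low to be tested, their summed level was 4149 to 4888 CPM in PAN+Pio, 4253 to 4631 CPM in PAN+MP, 4734 to 5875 CPM in PAN, and 8974, 6110.3, 3770 and 4156 CPM in the 4 Sham libraries. The inducible HSP70 gene Hspa1b spread most, at 6.997, 3.71, 3.001 and 0.991 CPM in PAN, against 104, 17.0, 1.08 and 1.71 CPM in Sham. Hspa1b is nearly identical to Hspa1a, so reads may be split between the copies. Sham library 3 was also lowest for 10 of 14 proximal tubule markers and 9 of 15 chaperones of the endoplasmic reticulum. It was highest for 8 of 10 endothelial markers. The share of all tested genes highest or lowest in each library is not given here, so these counts cannot be set against it. What set Sham libraries 1, 2 and 3 apart was not tested.

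**Figure D3:**
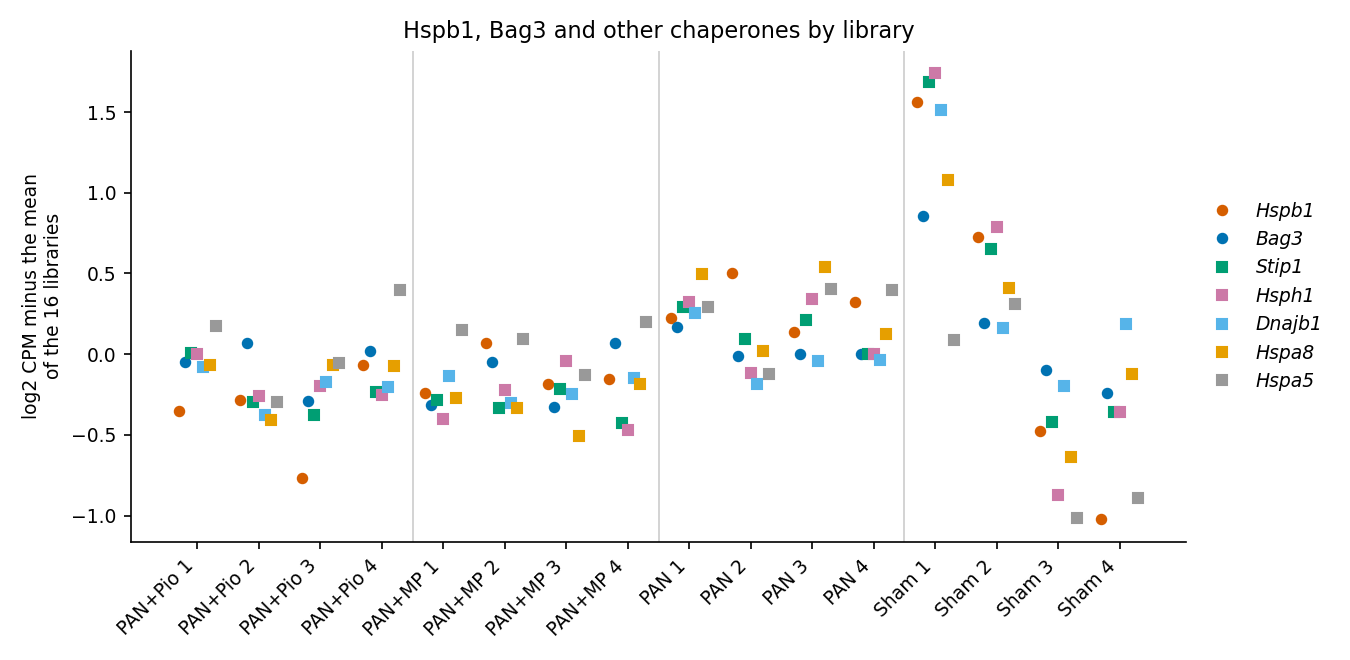
Log2 CPM minus the mean over the 16 libraries (vertical axis) of Hspb1 and Bag3 (circles) and 5 other chaperones (squares) in each library. Hspb1, Bag3, Stip1, Hsph1, Dnajb1 and Hspa8 stand highest in Sham library 1, and the ER chaperone Hspa5 does not.

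Of these 19 chaperones, none was called higher in PAN than in Sham and 1, Hspa1b, was called lower, at -3.08 ± 1.01 (adjusted p 0.0445), with PAN and Sham libraries overlapping. Their median log2 fold change was -0.18. The HSP70 gene Hspa8, BAG3's usual partner, differed by -0.01 ± 0.26 (adjusted p 0.984). None was called for PAN+Pio or PAN+MP against PAN by edgeR, where 1 and 2 had an unadjusted p under 0.05 and medians were -0.32 and -0.34. DESeq2 called 0 and 1. Without the 4 Sham libraries, the fit added after their spread was seen, 3 were lower in PAN+Pio and 9 in PAN+MP. The share of all tested genes called lower in that fit is not given here, so these 2 counts cannot be set against it.

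The transcription factor Hsf1 itself lay lower in every PAN library than in every Sham library, by -0.34 ± 0.15, short of the threshold (adjusted p 0.114). Hsf1 was called lower in PAN+Pio than in Sham, at -0.55 ± 0.15 (adjusted p 0.0412). None of the 3 heat shock factor genes tested (Hsf1, Hsf2 and Hsf4) was called in PAN against Sham by edgeR, where all 3 had an unadjusted p under 0.05. Hsbp1, which encodes an HSF1-binding protein, was called higher in PAN, at 0.27 ± 0.07 (adjusted p 0.0124). By DESeq2, 1 of these 4 genes was called, in the higher direction.

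Of 15 tested partners of BAG3 in client handling and degradation, 1 was called higher and 1 lower in PAN than in Sham. Sqstm1 (p62), the autophagy receptor for ubiquitinated clients, stood at 354, 379, 444 and 371 CPM in PAN, against 229, 265, 239 and 239 CPM in Sham. The groups did not overlap, and the log2 fold change was 0.67 ± 0.10 (adjusted p 2.14e-04). Against PAN it was -0.20 ± 0.10 in PAN+Pio (adjusted p 0.335) and -0.33 ± 0.10 in PAN+MP (adjusted p 0.0414). Synpo2 (myopodin), which links BAG3 to the Z-disc and to vacuolar sorting, was called lower in PAN, at -0.65 ± 0.14 (adjusted p 0.00573). The ligase gene Stub1 differed by -0.11 ± 0.08 (adjusted p 0.347). No partner was called for PAN+Pio against PAN by edgeR or DESeq2, where 2 had an unadjusted p under 0.05. The call for Sqstm1 in PAN+MP was lost in 6 of the 8 fits without a library of those groups.

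Among the other BAG genes, Bag2, an inhibitor of CHIP, was called higher in PAN, 1 of 4 tested. Bag2 stood at 8.97, 8.60, 10.7 and 8.31 CPM in PAN, against 3.08, 6.50, 2.05 and 3.62 CPM in Sham, without overlap. This amounted to 1.27 ± 0.25 on the log2 scale (adjusted p 0.00265). Of 15 chaperones of the endoplasmic reticulum, Pdia6 (0.53 ± 0.16, adjusted p 0.0316) and Canx (0.31 ± 0.10, adjusted p 0.0425) were called higher in PAN. Over the fits without a library of PAN or Sham this count ranged from 0 to 7, the highest without Sham library 2. The central ER chaperone Hspa5 differed by 0.52 ± 0.25 (adjusted p 0.159).

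A list of filamin A and Z-disc proteins, which also held Krt19, Sgcd and Fblim1, had 12 tested genes. Of these 12, 6 were called higher and 2 lower in PAN than in Sham. The higher ones included Synpo2l, a Z-disc relative of Synpo2, at 5.41 ± 0.43, Ldb3 (ZASP) at 2.68 ± 0.24 and the filamin C binder Myoz1 at 2.34 ± 0.26 (adjusted p 1.83e-06, 5.35e-06 and 2.97e-05). Nebl, a nebulin relative at the Z-disc, was lower, at -0.68 ± 0.15 (adjusted p 0.00523), as was Synpo2, already counted among the BAG3 partners. Against PAN, 2 of the 12 were lower in PAN+Pio and 5 in PAN+MP, and none was higher. Ldb3 and Flna were lower under both drugs. Against Sham, 2 of the 12 were called higher and 1 lower in PAN+Pio, and 2 higher and 2 lower in PAN+MP. Synpo2l averaged 242 ± 61.4 CPM in PAN+Pio, 158 ± 93.5 CPM in PAN+MP, 477.5 ± 95.6 CPM in PAN and 11.3 ± 3.60 CPM in Sham (SD, n = 4 each). Myoz1 averaged 16.1 ± 3.59, 22.1 ± 7.32, 27.7 ± 3.94 and 5.47 ± 1.89 CPM in the same order. Flna, which encodes the widely expressed filamin A, was 0.88 ± 0.11 higher in PAN than in Sham on the log2 scale (adjusted p 9.29e-05). Flna differed from PAN by -0.68 ± 0.11 in PAN+Pio (adjusted p 0.00389) and by -0.84 ± 0.11 in PAN+MP (adjusted p 1.36e-04).

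Of 6 intermediate filament genes, 5 were called higher in PAN and none lower, a count that was 3 without Sham library 1. Against Sham, 2 of the 6 were called higher in PAN+Pio and 3 in PAN+MP, and none was called lower. Desmin, the filament that αB-crystallin protects in muscle, differed by 2.55 ± 0.21 (adjusted p 3.00e-06). Des was at 347, 275, 359 and 328 CPM in PAN+Pio, at 375, 369.6, 255 and 309 CPM in PAN+MP, and at 1074, 1264, 701 and 637 CPM in PAN. The Sham libraries ranged from 129 to 185 CPM. Every library of both drug groups lay below every PAN library and above every Sham library for Des. It differed from PAN by -1.49 ± 0.21 in PAN+Pio (adjusted p 0.0018) and by -1.49 ± 0.21 in PAN+MP (adjusted p 1.78e-04). Sync (syncoilin), a desmin-binding filament protein, was higher in PAN by 2.17 ± 0.34 (adjusted p 3.66e-04). Vim differed by 0.49 ± 0.13 (adjusted p 0.0161), and against PAN by -0.05 ± 0.13 in PAN+Pio (adjusted p 0.905). In PAN+MP every library lay above every PAN library for Vim, at 1248 ± 97.6 CPM in PAN+MP and 999.6 ± 34.9 CPM in PAN (SD, n = 4 each), a difference of 0.32 ± 0.13 that did not pass the threshold (adjusted p 0.165).

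**Figure D4:**
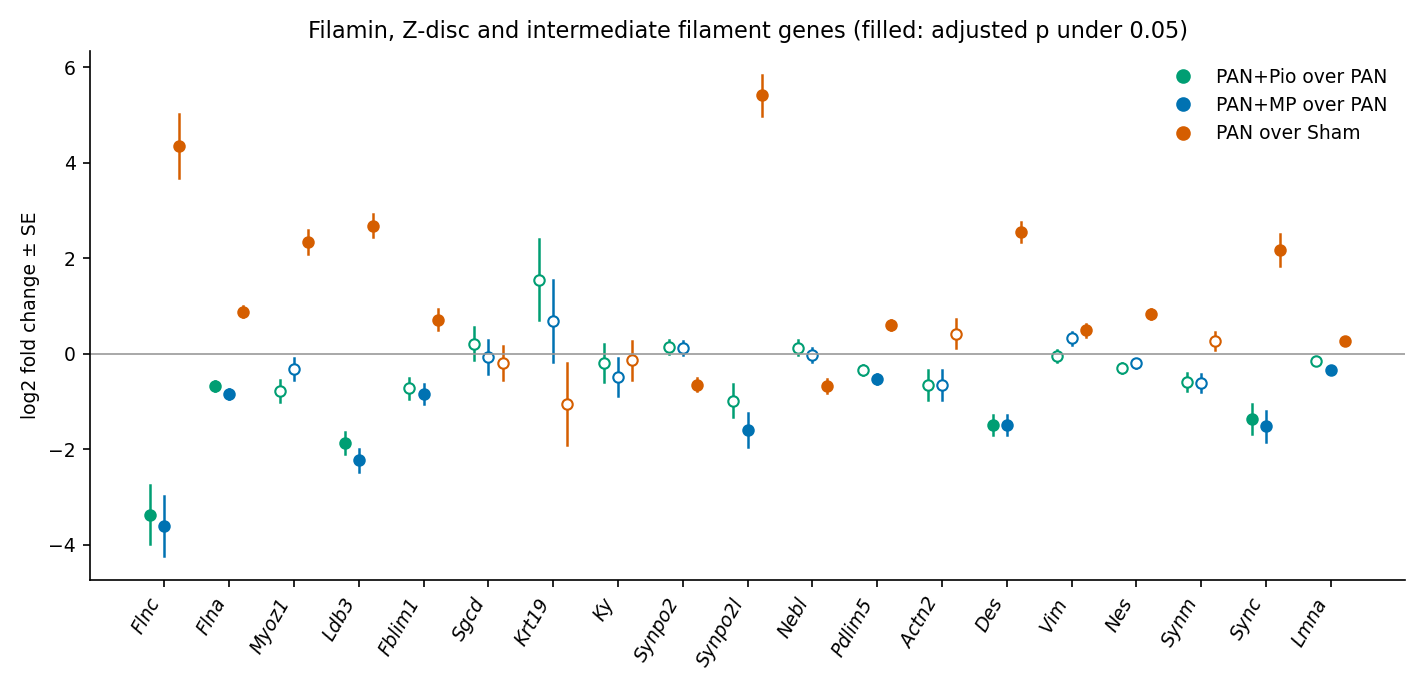
Log2 fold change ± SE (vertical axis) of Flnc, Flna, the other genes of the Z-disc list and intermediate filament genes. Genes shown passed the low-count filter, for PAN+Pio over PAN, PAN+MP over PAN and PAN over Sham. Filled points passed an adjusted p under 0.05. Flnc, Ldb3, Des and Sync lie above 0 for PAN over Sham and below 0 for both drugs over PAN, all with filled points.

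Of 12 vascular smooth muscle markers, 4 were called higher in PAN than in Sham, among them Tagln at 2.69 ± 0.25 and Cnn1 at 1.92 ± 0.43 (adjusted p 6.91e-06 and 0.00605), and none was called lower. The other 8 did not pass the test, among them Myocd, the coactivator of smooth muscle genes, at -0.52 ± 0.33 and the pericyte marker Rgs5 at -0.20 ± 0.25 (adjusted p 0.285 and 0.597). The summed level of the 12 was 894 to 1063 CPM in PAN+Pio, 974 to 1092 CPM in PAN+MP, 1312 to 1486 CPM in PAN and 905 to 1057 CPM in Sham. Against PAN, 4 were lower in PAN+Pio and 3 in PAN+MP. With the mean level of these markers as a covariate, the 2 members still called for PAN against Sham were Flnc (5.40, adjusted p 0.0027) and Hspb2, while Hspb6 (adjusted p 0.208) and Cryab (0.232) were not. Flnc in PAN+Pio against PAN was then -4.33 with an adjusted p of 0.122. The covariate itself differed between the groups, so the part of smooth muscle content in these differences cannot be told apart from the treatment.

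Of 14 striated muscle markers, 4 passed the low-count filter, and the actins Acta1 and Actc1 were called higher in PAN. The summed level of the 14 was 2.35 to 3.95 CPM in PAN+Pio, 1.59 to 3.08 CPM in PAN+MP, 20.5, 31.8, 9.80 and 10.9 CPM in the PAN libraries, and 2.12 to 3.39 CPM in Sham. PAN library 2 was highest in that sum and for Acta1 (24.3 CPM), and PAN library 1 was highest for Flnc and for Actc1 (7.08 CPM). Of the 4 tested markers, 2 were highest in PAN library 1 and 2 in PAN library 2. Ckm, Mb, Myh2, Myh4, Tnni2 and Myl2, which define mature striated muscle, had no more than 16 reads each over all libraries. Markers of the proximal tubule, another tissue that can remain on isolated glomeruli, summed to 2158 to 9429 CPM in PAN, against 3171 to 6941 CPM in Sham, and none of 14 was called in that comparison by edgeR, where 4 had an unadjusted p under 0.05. The median log2 fold change of these 14 was 0.79 for PAN against Sham, against 0.01 for all tested genes, and 13 lay above 0. Against Sham the median was 0.62 in PAN+Pio and 0.73 in PAN+MP, and against PAN it was -0.04 in each. With the mean level of the proximal tubule markers as a covariate, the same 4 members were called for PAN against Sham.

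Among genes outside the members, the one whose log2 CPM followed Flnc most closely over the 16 libraries was Tmem43, a nuclear envelope protein gene (Pearson r 0.942). Tmem43 was 0.57 ± 0.09 higher in PAN than in Sham, and differed from PAN by -0.50 ± 0.09 in PAN+Pio and by -0.45 ± 0.09 in PAN+MP. Hspb1 was followed most closely by the collagen-modifying enzyme gene Plod1 (0.938) and Bag3 by Stip1 (0.870), the HSP70 and HSP90 organising co-chaperone. Hspb2 was followed by Abhd12 (0.959), Cryab by Magt1 (0.918), Hspb6 by Irak1 (0.918) and Hspb8 by Arl4d (0.849). With the mean profile of the 7 members, the highest values were 0.922 for Otub2, 0.868 for Mylpf, a fast muscle myosin light chain, 0.858 for Myof (myoferlin), 0.841 for Foxk2 and 0.840 for Parp3. These are descriptions over 16 libraries that fall into 4 groups, and each is the highest of all tested genes.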

How the data were processed

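The members and all gene lists were chosen with earlier results of these data known. Read counts per gene were deposited by the authors for 16 libraries, 4 per group, and per the file headers are raw; they were used as they stand. Libraries were directional and made after removal of ribosomal and globin RNA, per the labels' protocols. The submitters' processing notes name cutadapt, STAR, HTSeq 0.6.1p1, DESeq2 and the build Rnor_6.0, without roles. Log2 fold changes and adjusted p-values deposited by the authors are quoted only as such. A further 20 columns of normalised or mean values were not used. Columns were assigned to groups by name and carry no replicate numbers. The untreated disease columns carry the word high, whose meaning is not given.

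The analysis ran in edgeR 4.0.16 under R 4.3.3: filterByExpr with a minimum count of 10, TMM factors (0.952 to 1.05), 1 model of the 16 libraries with 12 residual degrees of freedom, glmQLFTest, and Benjamini-Hochberg adjustment over 17061 genes at 0.05. The SE is the log2 fold change over the square root of F. CPM use the TMM-adjusted library size, and log2 CPM a prior count of 2. The biological coefficient of variation was 19.4%, and replicate pairs differed by at least 11.2 times the counting variance. Every member that passed the filter was tested in every comparison, and the values of some comparisons are not printed. From each list, genes called for PAN against Sham were named, at most the 4 with the largest change, with Hsf1, Hspa8, Hspa5, Stub1, Sqstm1, Synpo2, Flna and Des whatever their values. Lin37, Hspb3 and the genes in captions were added after their values were seen. Other genes named outside this rule include Myocd, Rgs5, Pdgfrb, Gata3 and Itga8, and not every gene that the rule covers is named. A gene of these lists is not reported here. The code was tested on simulated data. Alternatives used DESeq2 1.42.0, RLE factors, no filter, 2-group fits, marker covariates and fits without single libraries.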

Additional observations from a re-analysis of the deposited data

Results flagged for a closer look

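In the PAN group, library 1 stood apart from the other 3 for Bag3, at 37.1 CPM against 32.6 to 32.9 CPM. It was the only such case among 32 groups of 4 libraries examined, where chance gives about 1 in 20, or 1.6 cases. The same library had the highest Flnc level of all. With group means removed, the Pearson r of Bag3 with Flnc over the 16 libraries was 0.14.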

How the results depend on the processing

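No paired analysis was possible because the count columns carry no replicate numbers. With replicates left out 1 at a time, members called ranged from 4 to 4 for PAN against Sham, 1 to 2 for PAN+Pio against PAN, 1 to 1 for PAN+MP against PAN, 1 to 2 in PAN+Pio against Sham, 1 to 3 in PAN+MP against Sham and 0 to 0 with the drugs compared. All genes called ranged, in the same order, from 1978 to 4071, 276 to 677, 946 to 1387, 334 to 1124, 726 to 2381 and 0 to 130.

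Fits of the 2 groups compared called 2051 genes in PAN against Sham and 509 in PAN+Pio against Sham. Between the drugs they called 172. Members called were then 2 for PAN+MP against PAN (Flnc and Hspb1), 1 for PAN+MP against Sham (Hspb2) and 1 between the drugs (Hspb8). Without the 2 libraries whose columns carry an extra tag, 507 genes were called in PAN+Pio against Sham, 15 with the drugs compared, and 1 member (Flnc) for PAN+Pio against PAN. The proximal tubule covariate gave 203 genes with the drugs compared, 496 in PAN+Pio against Sham and 852 in PAN+MP against Sham. The smooth muscle covariate, which differed between the groups, gave 625 genes and 2 members for PAN against Sham, 306 genes for PAN+MP against PAN, and 1 gene and 0 members for PAN+Pio against PAN. DESeq2 called 1107 genes for PAN+Pio against PAN, 1780 genes and 2 members (Cryab and Hspb2) in PAN+Pio against Sham, and 298 genes with the drugs compared. Without the 4 Sham libraries, chosen after seeing the data, 163 genes were called between the drugs. The cause of these differences was not tested.

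Flnc was called for PAN against Sham in all 15 alternatives, between 3.29 and 5.40 on the log2 scale, and for PAN+MP against PAN in all 16, between -4.73 and -2.56. Leaving out Sham library 4 called Hspb1 lower in PAN+Pio than in Sham (-1.19, adjusted p 0.0416) and in PAN+MP than in Sham (-0.97, adjusted p 0.0490). Leaving out Sham library 2 called Cryab in PAN+Pio against Sham (adjusted p 0.0242). Hspb7 did not pass the low-count filter, and in a fit without that filter PAN differed from Sham by 1.44 ± 0.68 (adjusted p 0.227).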

Other observations

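Markers of other glomerular cells moved in the same comparisons. Of 8 tested macrophage markers, 4 were higher in PAN than in Sham glomeruli by edgeR's quasi-likelihood test, among them Mrc1 at 1.19 ± 0.34 and the chemokine receptor gene Cx3cr1 at 0.92 ± 0.23 on the log2 scale (SE, adjusted p 0.0222 and 0.0103). Against PAN, 4 were lower in PAN+Pio and 4 in PAN+MP, and the summed level of the list was 314 to 395 CPM in PAN+Pio, 282 to 558 CPM in PAN+MP, 454 to 702 CPM in PAN and 299 to 357 CPM in Sham. Of 10 endothelial markers, 6 were lower in PAN than in Sham, including Emcn at -0.70 ± 0.14 and Tie1 at -0.59 ± 0.14 (adjusted p 0.00207 and 0.00674), and none was higher. Of 6 tested mesangial markers, Des and Serpine2 were higher in PAN, and Des, Serpine2 and Itga8 were lower than in PAN under each drug. Des is also 1 of the intermediate filament genes above. None of the 6 was called lower in PAN than in Sham, and 5 had a log2 fold change above 0. Pdgfrb averaged 486 ± 107 CPM in PAN and 482 ± 158 CPM in Sham, and Gata3 110 ± 19.1 and 132 ± 28.2 CPM (SD, n = 4 each). The part of these cell types in the differences of Flnc and the chaperones was not tested.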
